A study of Mus musculus with 564 samples.

Results

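The samples described here are bone marrow-derived macrophages (BMDMs), primary cells grown out of wild type mouse bone marrow, that had received the vehicle dimethyl sulfoxide (DMSO) for 1 h and were then either left untreated (UT) or stimulated with interleukin 4 (IL-4) at 10 ng/mL for 4 h. They were chosen by the treatment named in their labels, with 2 replicates of each condition, and make up 4 of the 564 samples of a series that measured histone H3 acetylated at lysine 27 (H3K27ac) by chromatin immunoprecipitation and sequencing. The series used DMSO cells as the reference for 58 clinical kinase inhibitors (CKIs) given before IL-4 or lipopolysaccharide (LPS). Every sample holds a normalized read count for each of the same 59190 cis-regulatory elements (CREs), regions of open chromatin such as promoters and enhancers, and all of them were used. The label of the UT samples names 4 h without stimulus whereas their title names time 0. Whether the 2 replicates of a condition came from separate cultures or animals is not stated, so the p-values below measure the spread between these samples, which may be technical.

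IL-4 binds a receptor of the IL-4 receptor alpha chain and a partner chain, which activates Janus kinases (JAKs). These phosphorylate the transcription factor STAT6, which enters the nucleus and binds palindromic sites with TTC and GAA arms. In macrophages this pathway is known for alternative activation, with induction of arginase, lectin receptors and chitinase-like proteins, and for inducing its own inhibitors of the SOCS family. H3K27ac marks active promoters and enhancers, so its gain or loss at a CRE reports a change in regulatory activity near a gene and not the level of its RNA.

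The sequences of 7 CREs are shown first, because they hold, or lack, the STAT6-type letters that are also counted below. Each is 200 bases of the plus strand of mouse build mm10, read from the RefSeq GRCm38.p6 genome, and capitals mark the STAT6-type letters TTCNNNNGAA. The first is an intergenic CRE near the angiogenin gene Ang5, and the next 2 lie in introns of Clec16a, the former with the signalling inhibitor gene Socs1 as its nearest start. The fourth is intergenic near the inhibitor Cish, the fifth covers the promoter of Pdcd1lg2, which encodes the PD-1 ligand PD-L2, and the sixth lies upstream of the arginase gene Arg1. For these 6 the window is centred on the STAT6-type match nearest to the centre of the CRE. The last window is the centre of a CRE with one of the largest losses, in an intron of Prkcb, and this CRE holds no STAT6-type match anywhere.
Ang5, chr14:43967264-43967463: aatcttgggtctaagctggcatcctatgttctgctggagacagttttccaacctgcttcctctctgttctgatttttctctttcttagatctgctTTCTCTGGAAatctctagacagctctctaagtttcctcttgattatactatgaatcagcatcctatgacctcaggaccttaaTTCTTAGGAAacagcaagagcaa
Socs1, chr16:10702622-10702821: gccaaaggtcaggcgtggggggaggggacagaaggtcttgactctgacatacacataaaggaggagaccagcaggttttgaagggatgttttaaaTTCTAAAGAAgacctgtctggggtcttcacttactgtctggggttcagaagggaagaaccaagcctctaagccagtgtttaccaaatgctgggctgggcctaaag
Clec16a, chr16:10683472-10683671: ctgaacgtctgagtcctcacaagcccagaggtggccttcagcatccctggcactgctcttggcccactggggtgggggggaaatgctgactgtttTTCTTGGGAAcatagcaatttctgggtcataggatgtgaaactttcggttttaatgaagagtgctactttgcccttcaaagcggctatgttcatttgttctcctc
Cish, chr9:107307216-107307415: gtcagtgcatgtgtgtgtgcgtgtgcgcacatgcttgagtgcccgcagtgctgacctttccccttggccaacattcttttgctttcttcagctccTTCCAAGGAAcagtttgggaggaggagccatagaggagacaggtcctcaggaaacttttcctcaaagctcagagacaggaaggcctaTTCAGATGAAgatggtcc
Pdcd1lg2, chr19:29410742-29410941: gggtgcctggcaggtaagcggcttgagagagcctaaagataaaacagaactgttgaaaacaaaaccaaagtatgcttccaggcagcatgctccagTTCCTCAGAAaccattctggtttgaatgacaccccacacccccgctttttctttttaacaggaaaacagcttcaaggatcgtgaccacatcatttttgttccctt
Arg1, chr10:24960939-24961138: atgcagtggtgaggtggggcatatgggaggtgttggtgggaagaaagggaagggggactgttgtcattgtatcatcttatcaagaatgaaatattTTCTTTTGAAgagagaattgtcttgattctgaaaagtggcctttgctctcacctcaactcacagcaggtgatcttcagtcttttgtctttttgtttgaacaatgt
Prkcb, chr7:122415451-122415650: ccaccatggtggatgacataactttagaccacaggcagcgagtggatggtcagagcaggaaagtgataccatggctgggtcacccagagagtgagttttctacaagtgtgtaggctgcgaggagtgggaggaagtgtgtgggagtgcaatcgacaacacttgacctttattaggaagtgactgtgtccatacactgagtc

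After 4 h of IL-4, H3K27ac rose at 4047 CREs and fell at 2997 of the 47018 tested, which is 8.61% and 6.37%. A CRE was tested where its mean over the 10 DMSO samples of the IL-4 time course was at least 10 normalized read counts, and it was called where limma on log2(value + 5) gave an adjusted p under 0.01 together with a log2 difference above 1 in either direction. The 12172 CREs below that minimum (20.6%) had means of at most 26 in UT and 20.5 after IL-4. All log2 differences below are on this scale with a pseudocount of 5, which understates the change of low CREs. Rises were larger than falls. The log2 difference was above 2 at 1339 of the risen CREs and above 4 at 93, with a median of 1.62, whereas it was below -2 at 140 of the fallen CREs, with a median of -1.30. Over all tested CREs the median was 0.05. Of the risen CREs, 755 (18.7%) had fewer than 10 normalized read counts in both UT samples. Such CREs could be tested only where the other samples of the course raised their mean to the minimum, so this share is a description. The UT and IL-4 values did not overlap at 4046 risen and 2994 fallen CREs, and at 67.8% of all tested CREs. The scaled totals of the 4 samples were close to each other, between 5923684 and 6174849, but they do not give the sequencing depth, which is unknown for the UT samples.

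The labelled cell type was checked against its markers. Of the promoters of 22 macrophage identity genes, 19 CREs at 18 genes were present, and their sum was 10268 and 10241 in the UT samples and 9861 and 9353 after IL-4. The promoter of Spi1, which encodes the lineage factor PU.1, held 2046 and 2118 in UT and 2391 and 2068 after IL-4. Promoter CREs of lymphocyte markers were few, with 3 tested and a sum of 259 and 202 in UT against 150 and 179 after IL-4, and the CRE at the B cell factor Pax5 was at 1 and 0 in UT and listed at 0 in both IL-4 samples. Markers of mast cells, basophils and eosinophils had no promoter CRE in the table, and the promoter CREs of neutrophil markers were below the minimum for testing. Erythroid, stromal, endothelial and epithelial markers had 1 tested promoter CRE, with 285 and 294 in UT and 174 and 152 after IL-4. Dendritic cell markers had 1, with 8 and 6 in UT and 19 and 17 after IL-4. In bulk samples, fewer cells of a type and less H3K27ac per cell cannot be told apart.

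The CREs with the largest rise lay in a few neighbourhoods. Of the 15 largest, 5 were nearest to genes of the ribonuclease A family on chromosome 14 or to Gm8113 among them, and 5 were nearest to Socs1 or Clec16a on chromosome 16. The CRE near Ang5, at chr14:43966528-43968242, held 5 and 7 normalized read counts in UT and 740 and 714 after IL-4. The promoter of Ang2, at chr14:51198773-51201106, went from 21 and 18 to 866 and 725, a log2 difference of 5.03 ± 0.12 (SE). Near Gm8113 the values were 7 and 2 before and 681 and 578 after IL-4. At these 3 CREs both IL-4 samples lay far above both UT samples. The ribonucleases of this family include the eosinophil-associated ribonucleases and angiogenins, secreted enzymes with roles in defence and vessel growth, and their genes are near copies of each other. Repeated 51-base words, which occur more than once in the genome, made up 44.0% of the CRE near Gm8113, 16.3% of that near Ang5 and 3.42% of the Ang2 promoter, so the placement of reads between copies is least certain for the first. Over the whole family, 21 of 30 tested CREs within 50 kb of a member rose and 0 fell, with a median log2 difference of 3.06 against 0.05 over all tested CREs. At an unadjusted p under 0.05 limma gave 26 higher and 0 lower. The set of 8 angiogenins and others held 12 of these rises among 16 tested CREs, and the 7 eosinophil-associated ribonucleases held 9 among 14.

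At Socs1, which encodes an inhibitor that binds JAKs, the response spread over a long run of CREs, chr16:10639462-10889468. The run was singled out after its values were seen, as a stretch in which neighbouring risen CREs are at most 50 kb apart. Of 26 tested CREs 25 rose, and 17 did so by a log2 difference above 3. The sum over all 26 was 727 and 709 normalized read counts in UT and 8478 and 7942 after IL-4. In UT the promoter of Socs1 was the highest of them, with 251 and 274. After IL-4 the highest was a CRE in an intron of Clec16a, 82105 bp downstream of the Socs1 start in the direction of the gene, at chr16:10701759-10705104. It went from 30 and 20 to 1259 and 1071 (5.30 ± 0.11, limma adjusted p 5.32e-37). Over its whole length it holds 5 STAT6-type matches, 1 of them in the second sequence above. The neighbouring CRE at chr16:10699537-10701291 went from 5 and 2 to 468 and 448, and the CRE just past the end of Socs1, at chr16:10779616-10784035, from 12 and 8 to 723 and 633. All 3 thus exceeded the level that the Socs1 promoter had in UT. Of the 26 CREs, 11 had their centre in an intron of Clec16a, a gene with a role in autophagy, and 14 held a STAT6-type match. The CRE that was not called, in an intron of Rmi2, held 14 and 24 in UT and 20 and 34 after IL-4.

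**Figure D1:**
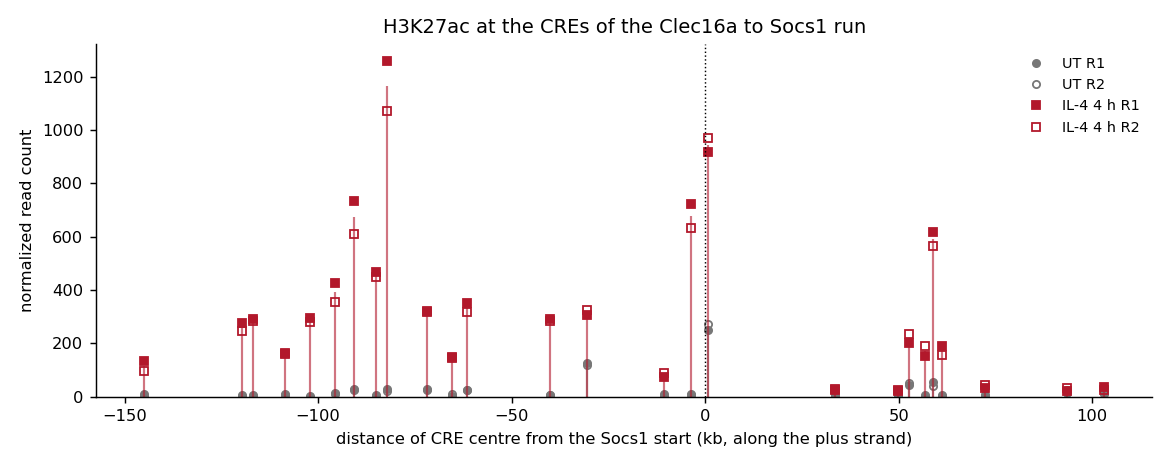
H3K27ac at the 26 tested CREs of the run around Socs1. The x axis gives the distance of each CRE centre from the Socs1 start in kb along the plus strand and the y axis the normalized read count, with grey circles for the 2 UT samples, red squares for the 2 IL-4 4 h samples and a line up to the IL-4 mean. The UT points stay at or below 274, whereas the IL-4 points reach 1259 at the CRE at -82.1 kb.

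The other 5 of the largest rises lay near genes outside the lists. The intergenic CRE at chr2:102791028-102792666, nearest to the glutamate transporter gene Slc1a2, went from 6 and 4 to 369 and 336 normalized read counts, a log2 difference of 5.17 ± 0.17. It lies in a run of 18 tested CREs towards Cd44, singled out after its values were seen, of which 16 rose. The CRE at chr3:37535125-37536868, nearest to Spry1, an inhibitor of receptor tyrosine kinase signalling, went from 1 and 3 to 243 and 222. Near Pear1, which encodes a platelet and endothelial receptor, the values were 1 and 1 in UT and 182 and 197 after IL-4. At all 3 the UT samples were close to 0. The CRE in an untranslated region of Il31ra, a chain of the IL-31 receptor, went from 4 and 6 to 334 and 282, and that near Tnk2, a cytoplasmic tyrosine kinase, from 2 and 2 to 207 and 200. The locus that the study used to control IL-4 samples by quantitative PCR, upstream of the IL-1 family receptor gene Il1rl2 at chr1:40321234-40323610, held 37 and 34 in UT and 307 and 276 after 4 h (2.87 ± 0.14).

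The falls were smaller, and the fallen CREs had higher UT levels than the risen ones. The median over the fallen CREs was 107 normalized read counts in UT and 38.5 after IL-4, whereas that over the risen CREs was 20.5 and 95. Over all tested CREs it was 60.5 and 63.5. The calls used these same values, so the contrast in UT levels is a description. In an intron of Prkcb, the gene of protein kinase C beta, the CRE at chr7:122414725-122416378 went from 186 and 187 in UT to 20 and 18 after IL-4. Upstream of Smad3, which relays signals of transforming growth factor beta (TGF-beta), the CRE at chr9:63779845-63781593 went from 260 and 237 to 25 and 40 (-2.78 ± 0.21). Both IL-4 samples lay below both UT samples at each of these CREs. Over all tested CREs, 67.8% had no overlap in either direction. Smad3 was also among the genes with the most fallen CREs, 12 of 18 tested, and a CRE in an intron of Tgfbi, a matrix protein induced by TGF-beta, went from 152 and 148 to 19 and 23. Near Cap1, an actin regulator, the values were 242 and 237 before and 20 and 38 after IL-4. At the promoter of Pilrb1, an activating receptor of myeloid cells, they were 329 and 264 before and 42 and 32 after. Of the last CRE, 34.9% consists of repeated words.

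**Figure D2:**
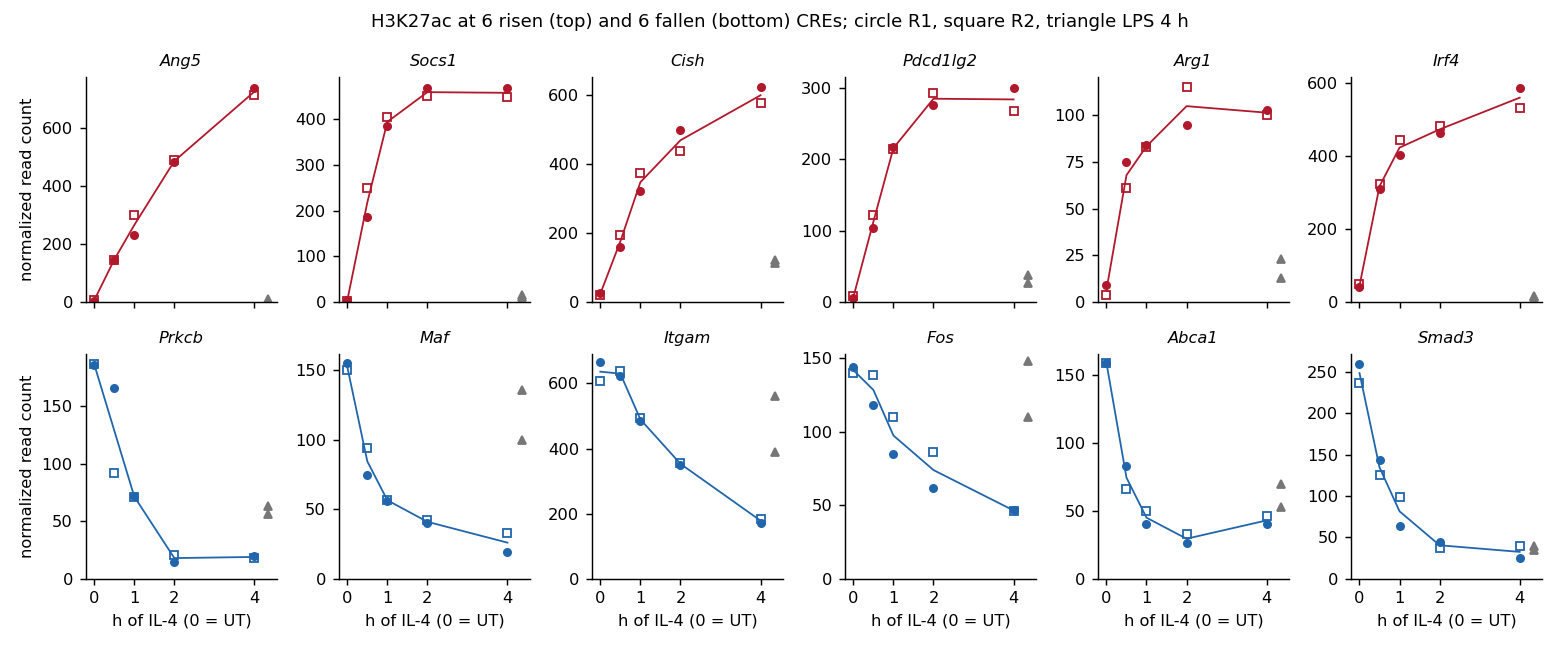
H3K27ac at 6 risen and 6 fallen CREs over the IL-4 time course. Each panel plots normalized read counts against hours of IL-4 with UT at 0, filled circles for replicate 1, open squares for replicate 2, a line through the means, and grey triangles at the right edge for the 2 LPS 4 h samples. The risen CREs are those at Ang5, Socs1 (chr16:10699537-10701291), Cish (chr9:107305487-107308932), Pdcd1lg2 (promoter), Arg1 (chr10:24960482-24962061) and Irf4 (chr13:30713904-30715753). The fallen CREs are those at Prkcb, Maf (chr8:115493711-115495377), Itgam (promoter), Fos (chr12:85517605-85520584), Abca1 (chr4:53180934-53182469) and Smad3 (chr9:63779845-63781593). At Socs1 and Pdcd1lg2 the 2 h and 4 h values lie together, whereas at Ang5 the 4 h values lie above the 2 h values.

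Genes of the IL-4 signalling pathway had rises at kinases, adaptors and inhibitors. Falls were found among these too, and at a receptor chain and Stat6. Of 128 tested CREs within 50 kb of its 21 genes, 23 rose and 8 fell, with a median log2 difference of 0.06, which lay between -0.0041 and 0.11 over the alternative settings. For the 3 receptor chains, 0 of 10 CREs rose and 2 fell by limma, against 0 higher and 5 lower at an unadjusted p under 0.05. Both falls were near Il13ra1, a chain that binds IL-13 and IL-4, and the promoter of the common gamma chain gene Il2rg held 79 and 71 in UT and 83 and 83 after IL-4. The promoter of Stat6 held 694 and 691 before and 662 and 652 after, a log2 difference of -0.08 ± 0.09. Neither promoter was called, although the Stat6 samples of the 2 conditions did not overlap. Of the 3 tested CREs of Stat6, 1 was called lower. Among 64 CREs of kinases and adaptors 10 rose and 1 fell. The intergenic CRE upstream of Jak2 at chr19:29238851-29242610 went from 45 and 47 to 344 and 394, while the Jak2 promoter, from 235 and 255 to 521 and 464, stayed just under the threshold at 0.99 ± 0.10 and passed it with a pseudocount of 1 and without 1 sample (UT replicate 2 or IL-4 replicate 2). Upstream of Irs2, an adaptor that docks to the IL-4 receptor, the values were 18 and 10 in UT and 165 and 161 after IL-4. At a CRE inside Pik3cd, a catalytic subunit of phosphoinositide 3-kinase, they were 11 and 12 before and 123 and 100 after. Both CREs rose from low levels without overlap of the samples, and 67.8% of all tested CREs had no overlap between UT and IL-4.

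The feedback inhibitors held 13 of the 23 rises and 4 of the 8 falls, among 51 tested CREs. The 4 falls were all near Socs3. The promoter of Socs1 went from 251 and 274 to 917 and 968 (1.83 ± 0.08), that of Socs2 from 37 and 31 to 138 and 158 (1.97 ± 0.15), and that of Cish, another member of this family, from 68 and 73 to 428 and 404 (2.48 ± 0.12). A CRE at chr9:107305487-107308932, 10297 bp from the Cish start, rose further, from 27 and 21 to 622 and 577 (4.39 ± 0.14). Over its whole length it holds 5 STAT6-type matches. The family did not move as a whole. The promoter of Socs3 held 269 and 222 in UT and 194 and 197 after 4 h, a log2 difference of -0.31 ± 0.11, after 533 and 503 at 30 min. It had therefore been higher at the start of the course and was not above UT at 4 h.

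Genes of alternative activation had the highest share of risen CREs after the ribonucleases among the 12 lists plotted below. Of 155 tested CREs within 50 kb of its 28 genes with a tested CRE, 70 rose (45.2%) and 11 fell, and the median log2 difference was 0.82. The list was drawn up with the response of macrophages to IL-4 in mind, so its direction is no independent evidence. At the promoters, 14 of 21 rose and 1 fell. Among enzymes, the promoter of Arg1, which turns arginine into ornithine, went from 123 and 141 to 617 and 564 (2.12 ± 0.10), and the upstream CRE shown above from 9 and 4 to 103 and 100. Near Chil4, a chitinase-like protein, the CRE at chr3:106220922-106222606 went from 4 and 6 to 175 and 189. The promoter of the prostaglandin synthase gene Ptgs1 rose less, from 161 and 141 to 325 and 349. These enzymes did not all rise. The promoter of the transglutaminase gene Tgm2 went from 273 and 273 to 83 and 93 (-1.58 ± 0.13), after 403 and 379 at 30 min. The enzymes held 10 of the 11 falls of this list.

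Surface receptors and ligands had the highest share of its roles, with 30 rises and 0 falls among 45 tested CREs by limma, against 38 higher and 2 lower at an unadjusted p under 0.05. The promoter of Pdcd1lg2 went from 6 and 8 normalized read counts to 300 and 267, a log2 difference of 4.59 ± 0.17. That of the VEGF receptor gene Flt1 went from 37 and 25 to 330 and 369, and that of the lectin gene Mgl2 from 95 and 78 to 480 and 461. In all 3 the samples of the 2 conditions were far apart. The promoter of Mrc1, the mannose receptor, had an adjusted p below the limit but stayed under the log2 threshold, with 285 and 279 before and 431 and 435 after (0.61 ± 0.10). It had been at 535 and 473 at 30 min. Upstream of the transferrin receptor gene Tfrc, the CRE at chr16:32592800-32594484 went from 12 and 9 to 195 and 175. Among secreted proteins, the promoter of the chemokine gene Ccl24 went from 62 and 51 to 179 and 127, whereas that of the growth factor gene Igf1 was already strong and went from 727 and 761 to 1483 and 1291, a log2 difference of 0.89 ± 0.08 under the threshold.

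Transcriptional regulators of alternative activation rose at 22 of 59 tested CREs and fell at 1. Irf4 and Klf4, both transcription factors of IL-4-treated macrophages, rose more at distant CREs than at their promoters. The CRE 34398 bp upstream of Irf4 went from 41 and 49 to 588 and 533, and the Irf4 promoter from 66 and 58 to 187 and 184 (1.51 ± 0.20). The CRE 35026 bp upstream of Klf4 went from 9 and 9 to 263 and 353, and the Klf4 promoter from 155 and 159 to 243 and 236, a log2 difference of 0.59 ± 0.14 under the threshold. Over its whole length the CRE upstream of Irf4 holds no STAT6-type match and that upstream of Klf4 holds 2. The promoter of Egr2 went from 211 and 219 to 543 and 574, and that of Batf3, a partner of IRF factors, from 67 and 87 to 260 and 264. The promoter of the nuclear receptor gene Pparg did not rise, with 194 and 194 in UT and 160 and 187 after IL-4 (-0.16 ± 0.15).

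Metabolic lists differed from each other. In arginine and polyamine metabolism, 14 of 61 tested CREs rose and 2 fell, with a median log2 difference of 0.26, and both falls were lost without IL-4 replicate 1 or UT replicate 2. The promoter of Slc7a2, a transporter of cationic amino acids, went from 14 and 14 to 143 and 166 (3.07 ± 0.18), and a CRE near Odc1, ornithine decarboxylase, from 9 and 8 to 125 and 116. Genes of PPARg, LXR and lipid handling had 11 rises and 15 falls among 106 tested CREs, with a median of -0.14 that was -0.09 without IL-4 replicate 1. The 2 cholesterol exporters of this list went apart. At Abca1 the promoter went from 305 and 358 to 108 and 152 (-1.33 ± 0.17), and a run of 30 CREs from Abca1 to Slc44a1, chosen after its values were seen, held 19 falls, whose sum went from 3232 and 3341 to 1067 and 1185. In an intron of Abcg1 a CRE went from 38 and 20 to 318 and 308, while the Abcg1 promoter went from 179 and 176 to 302 and 301 (0.75 ± 0.12), under the threshold. Near the scavenger receptor gene Cd36, the CRE at chr5:17838945-17840657 went from 197 and 205 to 51 and 54, after 352 and 376 at 30 min.

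**Figure D3:**
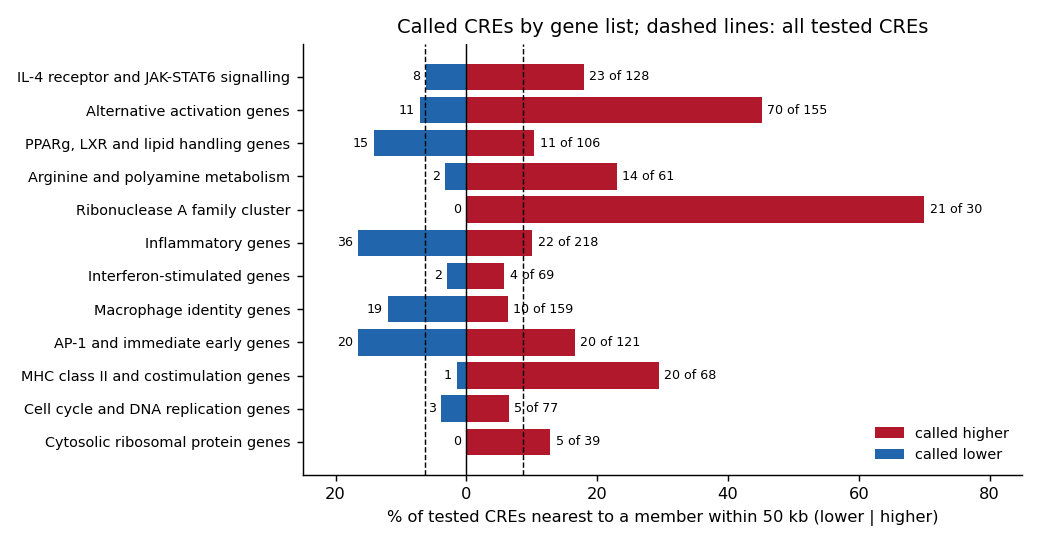
Share of called CREs for 12 gene lists. Red bars to the right give the percentage of tested CREs within 50 kb of a member that rose and blue bars to the left the percentage that fell, with counts at the bars and dashed lines at 8.61% and 6.37%, the shares over all tested CREs. The ribonuclease A family (21 of 30) and alternative activation (70 of 155) reach furthest to the right, and inflammatory genes (36 of 218) and AP-1 genes (20 of 121) furthest to the left.

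Inflammatory genes had CREs in both directions. Of 218 tested CREs, 22 rose and 36 fell, with a median log2 difference of -0.16. Without UT replicate 1 there were 23 rises and 23 falls, and with a pseudocount of 20 there were 15 and 18. Without UT replicate 2 the median was -0.25. Chemokines had 8 falls and 0 rises among 29 CREs by limma, against 17 lower and 2 higher at an unadjusted p under 0.05, and cytokines 10 falls and 3 rises among 50. A CRE near Nfkbiz, which encodes a nuclear regulator of NF-kB, went from 153 and 161 to 37 and 27 (-2.14 ± 0.24). Rises were found at receptors. The promoter of Cd40, a receptor for T cell help, went from 98 and 80 to 260 and 295, and a CRE in an intron of Tlr4, the LPS receptor, from 36 and 16 to 142 and 192. An intronic CRE of Rel, an NF-kB subunit, went from 26 and 31 to 177 and 191. The promoter of Cd14, the co-receptor of LPS, went from 564 and 539 to 276 and 307 (-0.91 ± 0.11), under the threshold. Interferon-stimulated genes had 4 rises and 2 falls among 69 tested CREs with a median of 0.15. Of their 22 promoters 0 were called by limma, against 9 higher and 2 lower at an unadjusted p under 0.05. Over all tested promoters 2.59% rose and 1.40% fell. Near Irf7, an interferon regulatory factor, the CRE at chr7:141267801-141269910 went from 132 and 129 to 381 and 327.

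Genes of antigen presentation and costimulation rose at 20 of 68 tested CREs and fell at 1, with a median log2 difference of 0.66 that was 0.42 without IL-4 replicate 2. Costimulatory and inhibitory ligands held 15 of the rises among 36 CREs and antigen presentation 5 among 32. The 9 tested CREs of the class II genes H2-Aa, H2-Ab1 and H2-Eb1 were not called. The CRE in an intron of Cd74, the invariant chain of MHC class II, was already strong and went from 371 and 378 to 1247 and 1150 (1.66 ± 0.08). In the gene of the MHC class II transactivator, Ciita, an intronic CRE went from 7 and 7 to 74 and 68. The promoter of Cd274, the PD-L1 gene next to Pdcd1lg2, went from 210 and 250 to 495 and 473 (1.06 ± 0.11), a call that was lost without UT replicate 1. The fall was near Icosl, a ligand of the costimulator ICOS, from 260 and 241 to 57 and 77. Pdcd1lg2 and Cd40 belong to this list and to one of the lists above.

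AP-1 and immediate early genes had 20 rises and 20 falls among 121 tested CREs, with a median log2 difference of -0.25. The promoter of Fos went from 580 and 638 to 219 and 231 (-1.42 ± 0.11), and a CRE near the orphan receptor gene Nr4a1 from 115 and 102 to 27 and 33. Of the 20 rises, 7 were near Batf3 and 4 near Batf, BATF factors that pair with other AP-1 proteins, 3 each near Fosl2 and Egr2, and 1 each near Jun, Jund and Ier3. Upstream of Batf a CRE went from 16 and 8 to 204 and 190 (3.61 ± 0.21), and upstream of Batf3 another went from 14 and 14 to 158 and 186. Batf, Fosl2, Jun and Ier3 had falls as well, 2 each for the first 3 and 1 for the last.

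Macrophage identity genes differed by role. The lineage transcription factors had 8 rises and 5 falls among 92 tested CREs, 8.70% and 5.43%. These shares are close to the 8.61% and 6.37% over all tested CREs. Of their 10 promoters 0 were called by limma, against 4 higher and 2 lower at an unadjusted p under 0.05. Over all tested promoters 2.59% rose and 1.40% fell. The surface and lysosomal markers had 2 rises (2.99%) and 14 falls (20.9%) among 67. Of these falls, 7 were at Itgam, the CD11b integrin chain, and 5 at Cx3cr1, the fractalkine receptor. The Itgam promoter went from 666 and 606 to 172 and 185 (-1.80 ± 0.10) and that of Cx3cr1 from 288 and 296 to 94 and 99 (-1.55 ± 0.16). An intronic CRE of Tfec, a factor of the MiT family, went the other way, from 39 and 37 to 260 and 217. The median of the whole list, 0.02, lay between -0.06 and 0.04 over the alternative settings, so it has no stable sign.

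Cell cycle genes had 5 rises and 3 falls among 77 tested CREs with a median log2 difference of -0.20, and 1 fall was called without UT replicate 1 and 1 without UT replicate 2. Of their 25 promoters 0 were called by limma, against 3 higher and 7 lower at an unadjusted p under 0.05. Over all tested promoters 2.59% rose and 1.40% fell. Among cyclins and kinases, a CRE upstream of the cyclin gene Ccnd2 went from 73 and 75 to 12 and 17. A CRE upstream of the kinase gene Cdk6 went from 26 and 12 to 79 and 73, after 197 and 223 at 30 min. Ribosomal protein genes had 5 rises and 0 falls among 39 tested CREs by limma, against 25 higher and 7 lower at an unadjusted p under 0.05, with a median of 0.42. At their 22 promoters 0 were called, 19 were higher and 2 lower at an unadjusted p under 0.05, and the median was 0.50, and their summed level went from 5811 and 6102 to 7652 and 7890.

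Markers of other cells of a bone marrow culture were also read. Of 10 tested lymphocyte CREs, 0 rose and 2 fell by limma, against 0 higher and 3 lower at an unadjusted p under 0.05. Both falls were at Ms4a1, the CD20 gene, which lies in a cluster of related genes. The intronic one went from 752 and 790 to 221 and 236. Of 3 tested CREs of neutrophil markers 2 rose, both nearest to Retnlg, a resistin-like gene. Retnla, a resistin-like gene of the alternative activation list, had 1 tested CRE, which rose as well. The Retnlg CRE at chr16:48862585-48864269 went from 26 and 16 to 339 and 307. Of 9 CREs of mast cell, basophil and eosinophil markers, 1 near Ms4a2 rose, from 9 and 2 to 72 and 89, and 1 near Siglecf fell, a call that was lost with a pseudocount of 20. Dendritic cell markers had 1 rise and 1 fall among 14. The rise, near Clec9a, was lost in 5 settings, among them those without IL-4 replicate 1, UT replicate 1 or UT replicate 2. The fall was near Xcr1, from 142 and 121 to 44 and 45. Erythroid, stromal, endothelial and epithelial markers had 0 calls among 8 by limma, against 1 higher and 1 lower at an unadjusted p under 0.05. The part of other cells in the differences above was not tested.

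Some called CREs lay in runs along the chromosomes and others alone. Runs were built from the called CREs after their values were seen, so the share of calls within a run is a description. Of 2051 runs of risen CREs 1255 were single CREs, and of 1543 runs of fallen CREs 960 were. The genes with the most rises nearest to them were Ado, with 27 of 30 tested CREs, Pan3 with 20 of 23, Gsdmc with 19 of 24, St7 with 18 of 19, Dusp4 with 16 of 25 and Slc1a2 with 15 of 18. Ado lies next to Egr2. The run of risen CREs from Egr2 to Zfp365 spans 256.7 kb and holds 38 tested CREs, of which 32 rose, and the sum of these went from 2415 and 2149 to 8570 and 8566. A CRE inside Pan3, a gene of messenger RNA deadenylation next to Flt1, went from 110 and 114 to 1068 and 946 (3.11 ± 0.09). The strongest risen CRE of St7 by log2 difference, in one of its introns, went from 13 and 10 to 308 and 329. Upstream of Dusp4, a phosphatase of MAP kinases, the CRE at chr8:34764271-34767294 went from 50 and 45 to 661 and 620. The Ear10 to Ear2 run on chromosome 14 held 13 tested CREs, of which 13 rose, and their sum went from 425 and 349 to 6452 and 5926.

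The genes with the most falls were Nrp1, with 18 of 36 tested CREs, Maf with 15 of 35, Trib1 with 14 of 40, Bach2 with 13 of 20, and Uaca and Smad3 with 12 of 18 each. Nrp1 encodes a co-receptor of semaphorins and VEGF, Maf and Bach2 encode bZIP transcription factors, and Trib1 encodes a pseudokinase that controls C/EBP proteins. A CRE far upstream of Nrp1, at chr8:128164309-128167157, went from 255 and 230 to 61 and 57. Downstream of Maf the CRE at chr8:115493711-115495377 went from 155 and 150 to 19 and 33, and in an intron of Bach2 the CRE at chr4:32372491-32374241 from 132 and 145 to 22 and 29. Each of these CREs fell without overlap of the UT and IL-4 values, a lack of overlap shared by 67.8% of all tested CREs. Among runs of fallen CREs, singled out after their values were seen, the one around the chemokine receptor genes Ccr1 and Ccr2 held 17 falls among 21 CREs with sums of 7340 and 7158 in UT and 2439 and 2375 after IL-4. The run of the paired receptor genes Pilra, Pilrb1 and Pilrb2 held 13 falls among 13, with sums of 2703 and 2453 before and 479 and 497 after. That of the Ifitm genes, antiviral membrane proteins, held 12 among 15, with 3065 and 2971 before and 872 and 977 after. Over all tested CREs, 154 runs of 5 or more held 1173 of the risen and 114 such runs held 821 of the fallen CREs, and 240 genes had CREs called in both directions.

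Both directions lay away from promoters. Promoters, with a CRE centre at most 1 kb from a protein-coding start, made up 23.1% of the tested CREs, against 6.94% of the risen and 5.07% of the fallen CREs. Among promoter CREs 2.59% rose and 1.40% fell, and of the 8773 CREs more than 50 kb from any start 1140 rose and 1005 fell. The median distance to the nearest start was 11615.5 bp over tested CREs, 21937 bp over risen and 26938 bp over fallen ones. The median UT level of tested promoter CREs was 153 and that of the distant ones 39, so that level and distance go together, and their parts in these shares were not tested.

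The letters of the CREs differed with the size and the direction of the change. They were searched on both strands in the central 300 bases of each CRE. The STAT6-type letters TTCNNNNGAA were found in 9.22% of all CREs and 9.68% of the tested ones. They were found in 33.7% of the risen CREs, in 49.2% of those with a log2 difference above 2, in 58.8% above 3 and in 61.3% above 4. Among the fallen CREs they were found in 5.21%. The share thus grew with the size of the rise, and the rest of the CREs above 4 held no match in these central bases. They can hold matches elsewhere, as the Clec16a intron CRE at chr16:10701759-10705104 does. The shorter STAT-type letters TTCNNNGAA, which fit other STAT proteins, were found in 9.40% of all CREs and 9.59% of the tested ones. They were found in 15.8% of the risen and 8.51% of the fallen CREs. The 2 sets of letters share their arms and differ by 1 base in the spacer, so a single site matches only 1 of them.

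The letters of other factors were counted in the same way. The AP-1 letters TGANTCA were found in 20.2% of all CREs, 29.1% of the fallen and 20.9% of the risen ones. The RUNX letters TGTGGT were found in 25.0% of all, 30.6% of the fallen and 27.6% of the risen CREs. The letters GAGGAAGT of PU.1, the lineage factor of macrophages, were found in 9.11% of all and 11.3% of the fallen CREs, and in 17.9% of the 140 with a log2 difference under -2. The C/EBP letters TTGCNNAA were found in 14.7% of all, 16.1% of the risen and 18.9% of the fallen CREs. The NF-kB letters GGGNNNTTCC, with 6.81% of all, 6.92% of the risen and 4.27% of the fallen CREs, were rarer in the fallen CREs, and the IRF letters GAAANNGAAA were found in 5.14%, 5.73% and 5.07%. The E-box CACGTG was found in 5.66% of all, 5.09% of the risen and 4.10% of the fallen CREs. Calls come only from the tested CREs, whose shares differ from those of all CREs. Of the tested CREs, 19.1% held the AP-1 letters, 24.2% RUNX, 9.20% PU.1 and 14.5% C/EBP. The NF-kB letters were in 6.14% of them, the IRF letters in 5.40% and the E-box in 6.04%. Fallen CREs were seldom promoters, and the tested CREs more than 50 kb from any start, called or not, held the AP-1 letters in 26.0%, RUNX in 28.1%, PU.1 in 11.9%, C/EBP in 18.4% and the STAT6-type letters in 12.4%. Beside these shares the fallen CREs differed little for PU.1 and C/EBP. A match is a run of letters and not a bound site. Promoters differ from other CREs in base composition, and the median GC content was 48.7% over tested, 45.7% over risen and 46.3% over fallen windows.

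**Figure D4:**
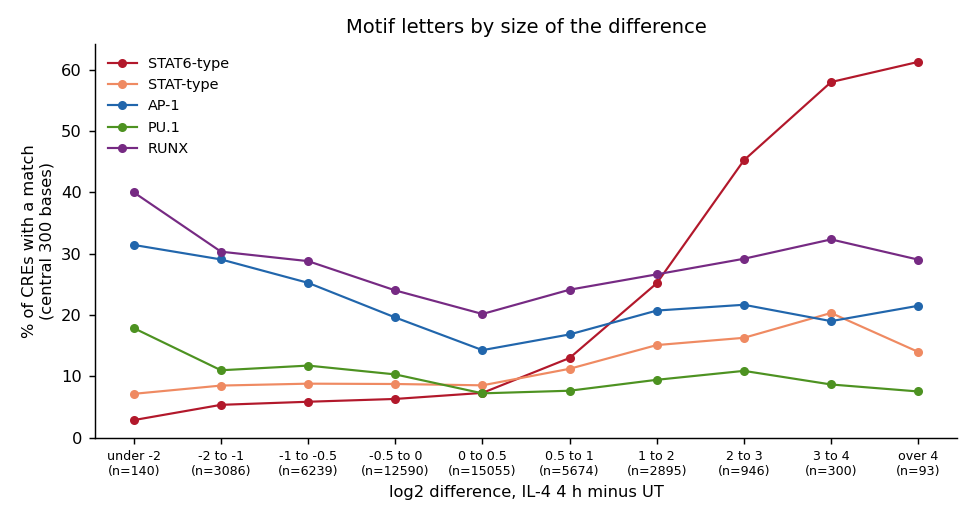
Share of tested CREs whose central 300 bases hold the letters of 5 motifs, by size of the difference. The x axis gives bins of the log2 difference between IL-4 4 h and UT with the number of CREs and the y axis the percentage with at least 1 match. The STAT6-type line climbs from 7.29% in the bin from 0 to 0.5 to 61.3% above 4, and the AP-1, PU.1 and RUNX lines are highest in the bin under -2.

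Few CREs were called between 2 h and 4 h of IL-4. Many more, 10651 of the 47018 tested, had an unadjusted p under 0.05 by limma. The direct comparison of the 2 times, in the same limma fit and with the same IL-4 4 h samples, called 250 CREs higher at 4 h (0.532% of 47018) and 200 lower (0.425%). These calls depended on how limma shares the spread between CREs, since 0 remained without a mean trend, where 9265 CREs had an unadjusted p under 0.05. They also depended on single samples. The higher count was 120 without IL-4 4 h replicate 1, 127 without IL-4 4 h replicate 2 and 130 without IL-4 2 h replicate 1, and the lower count was 116 without IL-4 2 h replicate 2. The balance between both directions depended on the scaling, since 55.6% of these calls were higher as scaled by the authors, 39.1% after the median ratio of each sample was set to 0 and 32.2% after quantile normalization. At Ang5 the values were 147 and 146 at 30 min, 232 and 300 at 1 h, 483 and 491 at 2 h and 740 and 714 at 4 h, a log2 difference of 0.57 between 2 h and 4 h that stayed under the threshold of 1. At the Clec16a intron CRE at chr16:10701759-10705104 they were 728 and 720 at 30 min, 1309 and 1223 at 2 h and 1259 and 1071 at 4 h. The first CRE was still higher at 4 h in both samples, and the second was not. The promoters of 2 inhibitors were past their highest values at 4 h. The Socs1 promoter held 1348 and 1191 at 2 h and 917 and 968 at 4 h, and the Socs2 promoter 304 and 304 at 2 h and 138 and 158 at 4 h. The difference at the Socs1 promoter stayed under the threshold. A CRE in an intron of Rasa2, an inactivator of RAS, had risen and returned, with 17 and 17 in UT, 187 and 254 at 30 min, 111 and 120 at 2 h and 19 and 32 at 4 h. It was called lower at 4 h than at 2 h with a log2 difference of -2.01. Some falls went on after 2 h. The Itgam promoter held 623 and 637 at 30 min, 349 and 357 at 2 h and 172 and 185 at 4 h, whereas the Prkcb CRE had reached 15 and 21 by 2 h, close to its 20 and 18 at 4 h. The Itgam difference between 2 h and 4 h also stayed under the threshold.

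The comparison with LPS at the same time asked which of these changes differ between the stimuli. It uses the same IL-4 4 h samples and 2 LPS 4 h samples, and limma over all 18 DMSO samples called 9017 of 50587 CREs higher after IL-4 (17.8%) and 10401 lower (20.6%). The CRE near Ang5 held 3 and 10 normalized read counts after LPS, the Clec16a intron CRE at chr16:10699537-10701291 held 11 and 16, and that near Irf4 held 16 and 13. After IL-4 these CREs were at 740 and 714, at 468 and 448 and at 588 and 533. All 3 were higher after IL-4, by 6.06 ± 0.27, 4.66 ± 0.32 and 4.86 ± 0.20. Some CREs rose to like levels after both stimuli. The Slc7a2 promoter held 143 and 166 after IL-4 and 160 and 163 after LPS (-0.07 ± 0.19), the CRE upstream of Jak2 344 and 394 against 332 and 356 (0.10 ± 0.15), and the intronic CRE of Rel 177 and 191 against 189 and 221 (-0.15 ± 0.20). These differences were within their errors. The Cish promoter, with 428 and 404 against 327 and 311, differed by 0.38 and was not called. Others were higher after LPS, such as the promoters of Jak2, with 1446 and 1376, Cd40, with 917 and 818, and Cd274, with 1262 and 1370.

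The falls also differed in their LPS values. The Smad3 CRE at chr9:63779845-63781593 held 25 and 40 after IL-4 and 35 and 40 after LPS, and that near Cap1 20 and 38 against 30 and 21. The promoter of Cx3cr1 held 94 and 99 against 132 and 82. At these CREs the samples of both stimuli overlapped. The Itgam promoter kept 560 and 389 after LPS and the CRE of Maf 136 and 100, and both were lower after IL-4, with log2 differences of -1.36 ± 0.14 and -2.01 ± 0.23. The promoter of Pilrb1 held 341 and 227 after LPS, near its UT level. Over the run of the Ifitm genes the sums were 872 and 977 after IL-4 and 5838 and 5172 after LPS.

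The CKI samples gave a further measure of the same difference in samples that were not used for the calls. For 55 CKIs a UT and an IL-4 4 h sample existed, 125 samples in all, mostly 1 of each, and the difference of log2(value + 5) was taken within each CKI. These samples are not replicates of DMSO cells, since each compound may alter the response and since depth and contrast differ between them, so the values are a description with no test. Of the CREs that rose in DMSO cells, between 72.7% and 98.3% had a difference above 0 in a CKI, with a median of 92.3%, while over all tested CREs this share was 35.4% to 72.3% with a median of 49.4%. Of the fallen CREs, 56.8% to 99.7% lay below 0, with a median of 94.4%. The medians over the risen CREs were smaller than in DMSO cells, whose own values had chosen these CREs. Over the risen CREs the median log2 difference lay between 0.54 and 1.47, against 1.62 in DMSO. Over the fallen it lay between -1.49 and -0.16, against -1.30 in DMSO. It was below the DMSO value for Lapatinib, AZD1208, Selumetinib and Refametinib. The median over all tested CREs also differed between CKIs, from -0.36 for Lapatinib to 0.50 for Momelotinib. These were the CKIs with the lowest and the highest median over the fallen CREs, and no adjustment was made for this shift. Of the risen CREs 2603 (64.3%) were above 0 in more than 90% of CKIs, where 8.26% of all tested CREs were, and of the fallen CREs 1722 (57.5%) were below 0, where 8.56% were.

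Of the 68 risen and 37 fallen CREs that were named, 46 and 12 had the DMSO direction in 55 of 55 CKIs, and the lowest numbers of CKIs were 43 and 37. The CRE near Ang5 had a lowest, median and highest UT value of 0, 22 and 85 over CKIs and an IL-4 value of 111, 403 and 638, and its difference was above 0 in 55 of 55. At the Clec16a intron CRE at chr16:10699537-10701291 the difference was also above 0 in 55 of 55. It ran from 2.05 for Filgotinib to 5.42 for VX702, with a median of 4.00. The CREs of Pdcd1lg2, Cish, Irf4 and Il1rl2 and the upstream CRE of Arg1 were above 0 in 55 of 55 as well. For the falls, the CRE of Prkcb and the Smad3 CRE at chr9:63779845-63781593 were below 0 in 55 of 55. The Itgam promoter was below 0 in 53. Others varied more. The CRE near Odc1 was above 0 in 49 and that upstream of Cdk6 in 43, and the CRE upstream of Ccnd2 was below 0 in 47.

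**Figure D5:**
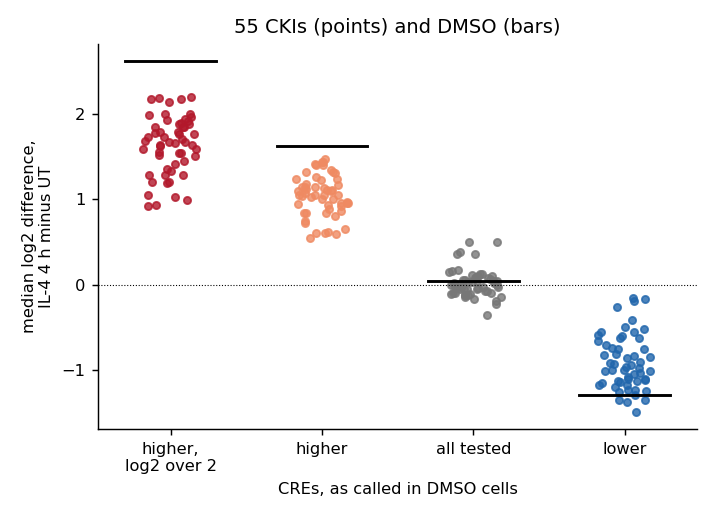
Median log2 difference between IL-4 4 h and UT in each of 55 CKIs (points) and in DMSO cells (bars) for 4 sets of CREs. The sets are the CREs called higher with a log2 difference over 2, all called higher, all tested and all called lower in DMSO cells. The points of the risen sets lie between 0.54 and 2.19, all above 0, and those of the fallen set between -1.49 and -0.16, all below 0. Those of all tested CREs lie between -0.36 and 0.50.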

How the data were processed

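H3K27ac was measured by ChIP-seq in BMDMs. Per the study's methods, the authors trimmed adapters and shortened the single-end reads to 51 bases, mapped them to mm10 with ShortStack (the submitters' processing notes also name Bowtie and SAMtools), counted reads at ATAC-seq peaks and scaled them by invariant peaks. The deposited values are normalized read counts rounded to whole numbers by the authors, and they were handled as a score, so no count model was used. The scaled totals do not give the depth, which limits what can be said of low CREs, and no counting interval could be computed.

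Samples were grouped by their labels. From 146 columns used (0 unmapped columns were used), log2(value + 5) was computed, CREs with a mean of at least 10 over the samples of a fit were kept, and limma 3.58.1 in R 4.3.3 was fitted with a mean trend and Benjamini-Hochberg adjustment over all tested CREs. IL-4 4 h against UT and against IL-4 2 h were fitted in the 10 DMSO samples of the IL-4 course, and IL-4 4 h against LPS 4 h in all 18 DMSO samples. A call needed an adjusted p under 0.01 and a log2 difference above 1 in either direction, as in the study, which however fitted an impulse model over time. Values are given with the SE of the fit, and each group had 2 samples. The fit was tested on simulated data before use.

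CREs were assigned to the nearest protein-coding start of GENCODE vM21, and those with a centre within 1 kb of it are called promoters. Sequences, repeated words of 51 bases and motifs were read with Python 3.11.15 (pandas 2.3.3, numpy 2.4.6, numba 0.67.0, matplotlib 3.10.9) from the RefSeq GRCm38.p6 genome. Words were counted on the 21 chromosomes. The nearest gene need not be the gene that a CRE acts on.

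The CREs named are the 15 largest rises and 10 largest falls, those of the 6 genes with the most calls in each direction, up to 5 called members of each of 17 gene lists with the promoters of members described, the locus used for quantitative PCR, and the 5 largest rises and 5 largest falls between 2 h and 4 h. Some of these results are not reported here. Runs were singled out after their values were seen. The compared conditions, the members and the lists were chosen with earlier results of these data known.

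The alternatives were pseudocounts of 1 and 20, no minimum and a minimum mean of 50, quantile normalization, median rescaling, no mean trend, a fit of the 4 samples compared or of all 18, other thresholds, the replicate number as a block and leaving out each sample. Leaving out CREs with over 20% repeated words was added after the data were seen. The same-numbered samples of different groups did not deviate together.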

Additional observations from a re-analysis of the deposited data

Results flagged for a closer look

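The IL-4 response differed from that to LPS at 4 h at many CREs, and these results were picked out because limma tested the difference between the stimuli directly. In all, 9017 CREs were higher and 10401 lower after IL-4, with the same IL-4 4 h samples as in the comparison with UT. Among the CREs with the largest rise over UT, the log2 difference from LPS was 6.40 near Gm8113, 6.06 near Ang5, 5.32 near Ang6, 4.52 near Rnase2b and 4.83 at the Ang2 promoter. On chromosome 16 it was 3.74 and 4.01 at the 2 CREs nearest to Clec16a, at chr16:10667850-10669508 and chr16:10682663-10684381. It was 4.66, 3.37 and 1.03 at the CREs of Socs1 that start at 10699537, 10701759 and 10779616, the last of which was not called without IL-4 4 h replicate 1 or without LPS 4 h replicate 2. It was 3.31 near Tnk2, 4.49 near Slc1a2, 4.94 near Spry1, 4.25 near Pear1, 3.93 at Il31ra and 4.27 near Il1rl2. Among the largest falls, the log2 difference from LPS was -1.43 at Prkcb, -2.76 and -1.47 at the 2 CREs of Pilrb1, -1.53 near Shq1 and -2.67 near Il22. The CRE of Tgfbi went the other way, with a difference of 1.31, since it fell further after LPS. That call was lost with a pseudocount of 20.

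The comparison of 4 h with 2 h of IL-4 gave 250 CREs higher and 200 lower at 4 h, picked out because 2 times of the same stimulus were tested against each other. The largest rises were 2.89 near Gm21739, 1.81 near Mpp6, 1.79 near Sardh, 1.71 near Prex1 and 1.69 near Nr4a3. The largest falls were -3.88 near Gm13275, -2.37 near Agr3, -2.02 near Gm14418, -2.01 at Rasa2 and -1.94 near Alg13. Repeated words made up 85.7% of the CRE near Gm21739, 95.2% of that near Gm13275, 72.4% of that near Gm14418 and 92.1% of that near Alg13. The calls near Mpp6, Prex1, Nr4a3, Gm14418 and Alg13 were each lost without at least 1 sample. The CRE near Sardh, in an intron of Vav2, had returned to its UT level, with 71 and 61 in UT, 16 and 23 at 2 h and 83 and 75 at 4 h.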

How the results depend on the processing

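The direction of the 7044 called differences between IL-4 4 h and UT did not turn under any alternative run. Their number moved with several settings. With a pseudocount of 20 there were 2767 higher and 1680 lower, with a minimum mean of 50, which tests fewer CREs, 2550 and 1828, and with a log2 threshold of 0.5 there were 6456 and 5717. Leaving out 1 sample gave 3464 to 3924 higher and 2251 to 3085 lower, quantile normalization 3624 and 3545, and median rescaling 3890 and 3317. Without CREs with over 20% repeated words there were 3913 and 2909. The Spi1 promoter, not called, had a log2 difference of 0.09 that lay between -0.0095 and 0.20 when 1 sample was left out, with the lowest value without IL-4 4 h replicate 1. Of the CREs named, 16 lost their call under at least 1 alternative.

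The comparison of IL-4 4 h with 2 h was less stable. A pseudocount of 20 gave 54 higher and 74 lower, a minimum mean of 50 gave 135 and 153, quantile normalization 140 and 295, no mean trend 0 and 0, the 4 samples alone 97 and 103, all 18 DMSO samples 149 and 144, a log2 threshold of 0.5 gave 911 and 863, and an adjusted p under 0.05 gave 451 and 250. Leaving out 1 sample gave 120 to 259 higher and 116 to 240 lower. Against LPS, a minimum mean of 50 gave 5946 higher and 5840 lower, and leaving out 1 sample 7896 to 9049 and 8871 to 10202. The cause of these moves was not tested.

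The replicate numbers did not pair the samples, since the deviations of same-numbered samples correlated by -0.04 to 0.08 over 10 pairs of groups of the IL-4 course. With the replicate block, IL-4 4 h against UT gave 4043 higher and 2988 lower, against 2 h 254 and 201, and against LPS 9017 and 10395. Depth is unknown, and with 2 samples a group the spread of a single CRE is set largely by the trend over all CREs.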

Other observations

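A further run of fallen CREs, singled out after its values were seen, lay away from the lists. At Lpp, which encodes an adhesion protein of the zyxin family, 17 of 23 CREs fell, and their sum went from 6509 and 6341 to 2598 and 2553, while it was 14457 and 12794 after LPS. The IL-4 and LPS values of this run thus lay on opposite sides of UT, as did those of the Ifitm run described above, whose LPS sums were 5838 and 5172.

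The 2 CREs nearest to Slc1a2 that were named differed in their LPS values. The one upstream, at chr2:102738148-102739804, held 10 and 3 in UT, 86 and 95 after IL-4 and 198 and 183 after LPS, whereas the one 30674 bp downstream of the start stayed at 16 and 7 after LPS.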
